A study of Homo sapiens with 8 samples.

Results

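The proteasome genes of 2 colorectal cancer cell lines were described with and without the compound Z325. They were taken by symbol, as every gene named PSMA, PSMB, PSMC, PSMD, PSME, PSMF or PSMG followed by a number. This rule found 48 of the 63241 genes listed for NCI-H716 and 16 of the 28043 genes listed for HCT116, whose table used here covers chromosomes 1 to 8 and the start of chromosome 9. The other 32 proteasome genes therefore have values in NCI-H716 only.

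The proteasome is the large protease that degrades proteins tagged with ubiquitin. Its core particle is a barrel of alpha subunits (PSMA genes) and beta subunits (PSMB genes), and the active sites lie on 3 of the beta subunits. A regulatory particle of ATPases (PSMC genes) and non-ATPases (most PSMD genes) binds ubiquitinated proteins, unfolds them and feeds them into the core, while PSME genes encode alternative activators, PSMF1 an inhibitor, and PSMG genes and a few PSMD genes the chaperones that assemble the complex. Tumour cells depend on it, and inhibitors of its active sites are used as drugs.

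HCT116 is an epithelial colon carcinoma line, and NCI-H716 is a colorectal carcinoma line with neuroendocrine features. Each was sequenced as 2 control and 2 Z325 libraries, 8 libraries in all, from about 100 cells per reaction by full-length cDNA amplification. Z325 is ZINC000101867325, a small molecule chosen by docking to FGF receptors, and the libraries labelled Test were read as the treated ones. The study fixed a working concentration of Z325 after its viability assay and did not restate it for the RNA sequencing, and the sources used here name neither a treatment time nor what the control cells received. The study calls the 2 replicates biological duplicates, without saying whether they were separate cultures, so p-values measure only the spread between these libraries. An exact permutation test of 2 against 2 libraries cannot go below p = 0.333, and all p-values below come from edgeR's quasi-likelihood test with Benjamini-Hochberg adjustment over all genes tested.

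Total counts were 13183792 to 13396225 in 3 HCT116 libraries, 3434620 in HCT116 Z325 replicate 2, and 10210239 to 19738840 in NCI-H716. The epithelial marker EPCAM had 5665 to 21581 counts in HCT116 and 518 to 861 in NCI-H716, and the neuroendocrine marker CHGB had 5411 to 15227 in NCI-H716. Of the markers of colorectal identity in NCI-H716, CDX2 had 154 to 265 counts and VIL1 152 to 248, while CDX1 had 0 counts there and at most 2 in HCT116. The leukocyte list summed to at most 1.44 CPM (counts scaled to a common library size, here by TMM) and the endothelial list to at most 0.383 CPM in any library. The fibroblast list summed to at most 1.72 CPM in HCT116, and in NCI-H716 came nearly all from COL3A1, with DCN at 0 to 9 counts.

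Summed marker levels of 4 lists did not overlap between the groups in NCI-H716, while the leukocyte and endothelial sums did. Of all single genes tested there, 24.3% had both Z325 libraries above both controls and 25.1% below. The neuroendocrine sum, mostly CHGB, was 593.5 and 678.7 CPM in control and 748.7 and 944.0 CPM with Z325, though SYP lay the other way at 6.88 and 8.22 against 4.50 and 4.71. The fibroblast sum was 244.0 and 266.9 against 311.6 and 353.5 CPM, while COL1A2 lay the other way at 0.831 and 2.52 against 0.229 and 0.802. The epithelial sum, mostly KRT8 and KRT18, lay lower with Z325, at 802.4 and 754.5 against 681.6 and 661.7 CPM. Of its 7 tested genes 4 lay below control and 3 above, with ELF3 at 13.22 and 13.55 against 15.09 and 18.81 CPM. The colorectal sum also lay lower, at 36.5 and 40.7 against 26.0 and 25.9 CPM, with all 3 of its tested genes below control. In NCI-H716 none of the genes of these 4 lists passed an adjusted p under 0.05 in edgeR (background 0.403% higher and 0.099% lower). In HCT116 the epithelial marker ELF3 had 14.01 and 14.25 CPM in control and 3.44 and 1.72 with Z325 (log2 fold change -2.34, adjusted p = 0.0205 in edgeR). Of the 4 epithelial genes tested there, 2 lay above control and 2 below, and only ELF3 passed (background 2.83% higher and 2.94% lower). The part of these levels in the results below was not tested. Fewer cells of a kind and less RNA per cell cannot be told apart in these bulk libraries.

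The promoter windows of 4 members are shown because these genes carried the 1 significant change (PSMD2) or lay on opposite sides of control in the 2 lines (PSMG4, PSME4 and PSMB2). Each runs from 250 bases before to 50 bases after a RefSeq transcription start on GRCh38.p14. RefSeq windows were matched by symbol for 42 of the 48 members (51 windows, since some genes have several starts), and for PSMD2, which has 2, the one nearest the annotated 5′ end is shown. Capitals mark matches on either strand to 4 motifs, CCGGAA (the ETS core), TGACNNNGC (the core of the antioxidant response element, with N any base), CCAAT and CACGTG (the E-box). PSMD2 lies at chr3:184298991-184299290 on the plus strand, PSMG4 at chr6:3258697-3258996 on the plus strand, PSME4 at chr2:53970944-53971243 on the minus strand and PSMB2 at chr1:35641477-35641776 on the minus strand.
PSMD2: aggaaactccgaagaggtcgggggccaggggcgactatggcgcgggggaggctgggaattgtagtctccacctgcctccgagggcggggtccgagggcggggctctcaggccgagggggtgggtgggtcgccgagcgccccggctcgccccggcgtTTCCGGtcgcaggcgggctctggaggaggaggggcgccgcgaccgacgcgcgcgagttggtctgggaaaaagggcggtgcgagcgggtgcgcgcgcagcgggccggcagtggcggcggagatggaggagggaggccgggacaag
PSMG4: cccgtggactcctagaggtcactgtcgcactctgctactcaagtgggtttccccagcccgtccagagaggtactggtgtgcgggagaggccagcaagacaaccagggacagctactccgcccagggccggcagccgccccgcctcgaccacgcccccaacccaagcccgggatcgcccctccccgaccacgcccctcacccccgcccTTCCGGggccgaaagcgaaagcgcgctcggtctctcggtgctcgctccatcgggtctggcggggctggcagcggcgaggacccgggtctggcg
PSME4: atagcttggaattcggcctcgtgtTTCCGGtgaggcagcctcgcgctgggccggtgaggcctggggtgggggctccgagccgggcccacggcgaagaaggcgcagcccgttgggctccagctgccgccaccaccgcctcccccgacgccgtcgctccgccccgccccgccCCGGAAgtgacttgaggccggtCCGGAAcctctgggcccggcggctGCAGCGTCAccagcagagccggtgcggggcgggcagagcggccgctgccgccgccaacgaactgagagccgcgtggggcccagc
PSMB2: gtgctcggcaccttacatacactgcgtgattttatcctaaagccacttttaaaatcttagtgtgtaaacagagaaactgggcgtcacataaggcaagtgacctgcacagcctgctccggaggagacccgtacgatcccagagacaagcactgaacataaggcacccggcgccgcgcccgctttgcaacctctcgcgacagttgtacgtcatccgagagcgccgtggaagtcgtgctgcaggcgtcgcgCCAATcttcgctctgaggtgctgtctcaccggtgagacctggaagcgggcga

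The PSMD2 and PSMG4 windows held 1 ETS core each, 94 and 43 bases before the start. PSME4 held 3 ETS cores and 1 antioxidant response element core, and PSMB2 held a CCAAT box only. In no window shown did matches to different motifs overlap. Over the members, 22 of 51 windows (43.1%) held an ETS core against 17.2% of the 35116 RefSeq windows of this length, 15 (29.4%) held the antioxidant response element core against 13.3%, 20 (39.2%) a CCAAT box against 34.6%, and 3 (5.88%) an E-box against 7.26%. Windows of 1 gene can overlap, and a match is only a match of letters.

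Proteasome genes were among the most abundant transcripts of both lines. In NCI-H716 control libraries, where TPM (a level corrected for gene length and library total) was deposited, 39 of the 48 lay above 90% of detected genes. PSMA7, an alpha ring subunit, was the highest at 2331 ± 54.2 TPM (SD, n = 2), followed by PSMA4 at 1240 ± 59.5, PSMB3 at 1168 ± 89.3 and PSMB1 at 1157 ± 37.3, and the control libraries of PSMB3 overlapped those of both PSMA4 and PSMB1. By median, the alpha ring and structural beta subunits stood above the base ATPases and the lid. Single genes crossed, with the base subunit PSMD4 at 308.9 TPM and the alpha subunit PSMA5 at 203.7. The median was 799.5 TPM over the alpha ring (8 genes, with germline PSMA8 at 0) and 802.0 over the structural beta subunits, but 111.8 over the base ATPases and 104.6 over the lid. The lowest of the detected members were the lid subunit PSMD3 at 4.31 ± 1.73 TPM, the assembly chaperone PSMD5 at 9.90 ± 0.516 and the inhibitor PSMF1 at 13.4 ± 8.63. Control values of neighbours in this order overlapped for 30 of 47 pairs.

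**Figure D1:**
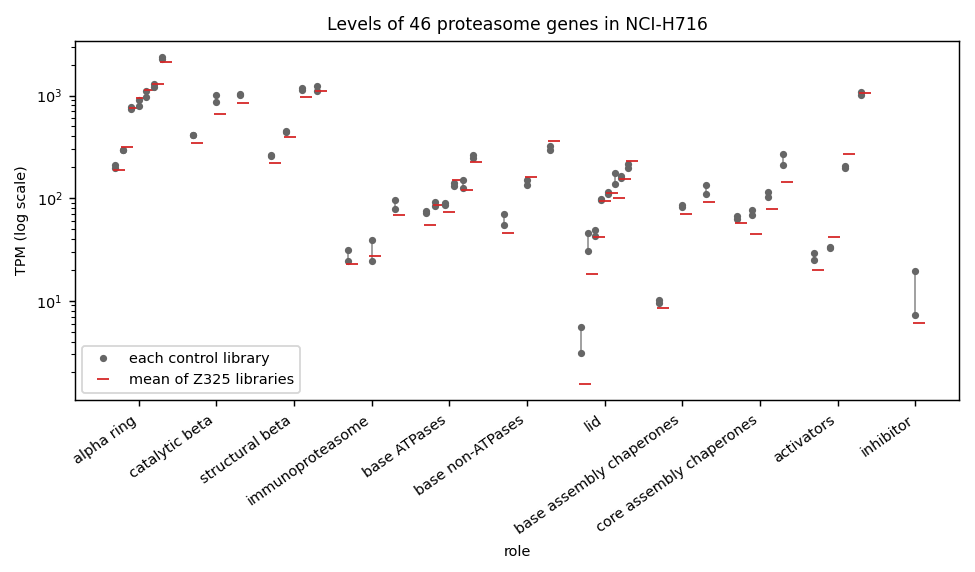
Level of each proteasome gene in NCI-H716 on a log scale (TPM), grouped by role along the x axis, with points for the 2 control libraries joined by a line and a red bar for the mean of the 2 Z325 libraries. The 46 genes at 1 TPM or more are drawn. Alpha and beta subunits fill most of the top of the range, with the activator PSME2 among them at 1042 TPM in control. PSMD3 in the lid lies lowest, at 4.31 TPM in control.

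Germline and tissue-restricted members were absent or at the limit of detection in NCI-H716. PSMA8, the testis form of an alpha subunit, had 0 counts in all 4 libraries, which allows up to 3 counts per library for counting error alone. PSMB11, the thymus form of a catalytic subunit, had 0 and 1 counts in control and 3 and 0 in Z325 libraries. Neither was tested, which left 46 members. The 3 immunoproteasome subunits, which replace the active beta subunits in immune and interferon-exposed cells, were present at 27.7 ± 4.97 (PSMB9), 31.9 ± 10.4 (PSMB8) and 86.5 ± 12.4 TPM (PSMB10) in control. Their constitutive counterparts PSMB6, PSMB5 and PSMB7 stood at 1019 ± 11.9, 934.0 ± 99.5 and 410.2 ± 0.665 TPM.

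In HCT116, TPM was computed here over the listed genes only and cannot be set beside NCI-H716. PSMB1 led at 5832 ± 255.7 TPM in control, then PSMB4 at 2766 ± 150.2 and PSMB2 at 1318 ± 59.0, all 3 structural subunits of the beta ring, and 11 of 16 members lay above 90% of detected genes. PSME4 was low at 15.9 ± 4.94 TPM. Control values overlapped for 4 of the 15 neighbouring pairs. PSMB8 and PSMB9 were listed at 0 counts in every HCT116 library. Both lie in the MHC region of chromosome 6, where 145 of 148 protein-coding genes between bases 29722775 and 33314284 (GRCh38) had at most 10 counts in every HCT116 library. That interval held 99 and 54 counts in control and 35 and 89 in Z325 libraries of HCT116, against 59802 to 115466 in NCI-H716. TUBB, a widely expressed tubulin gene inside it, had 2 to 5 counts, so the zeros of PSMB8 and PSMB9 cannot be read as absence of the transcripts, and the cause was not tested. The alpha subunit PSMA2 had 18 and 15 counts in control and 24 and 0 in Z325 libraries of HCT116, against 10174 to 20059 in NCI-H716. A same-strand readthrough transcript covers it and shares 1445 exon bases, 17.2% of all annotated PSMA2 exon bases. The longest coding transcript of PSMA2 has 1434 bases. The readthrough itself had at most 2 counts in HCT116, so the HCT116 value of PSMA2 is uncertain.

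Z325 against control was first compared in HCT116, where 14 members were tested. The regulatory subunit PSMD2 fell and no other member changed at an adjusted p under 0.05. PSMD2, which forms the toroid scaffold of the base and docks ubiquitin receptors, had 346.8 and 402.4 CPM in control and 209.0 and 215.4 CPM in Z325 libraries. Both treated libraries lay below both controls, and the log2 fold change was -0.82 (SE 0.136, 95% interval -1.13 to -0.51, adjusted p = 0.0152 in edgeR). This made 0 of 14 members higher and 1 lower, against a background of 2.83% of the 6491 genes higher and 2.94% lower. The call was lost without control replicate 1 (log2 fold change -0.93) and without control replicate 2 (-0.72). It was kept without either Z325 library (-0.82 without the shallow Z325 replicate 2, -0.81 without replicate 1). Fits without a control library called a smaller share of all genes than the reported fit, and fits without a Z325 library a larger one. The PSMD2 call was also lost in limma on log2 FPKM (adjusted p = 0.0578 and 0.0673 with pseudocounts of 1 and 0.1). PSMD2 shares no exon bases with another annotated gene.

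The other HCT116 members lay near control. The median log2 fold change over the 14 was 0.02, against -0.03 over all genes tested, and 12 of 14 lay within 0.5 of zero on the log2 scale against 58.8% of all genes. At an unadjusted p under 0.05, 0 members were higher and 2 lower, PSMD2 and PSMG3 (background 11.2% and 12.7%). Leaving out 1 library at a time kept the lower count at 2 or 3 and moved the median between -0.09 (without control replicate 1) and 0.19 (without control replicate 2). Both Z325 libraries lay above both controls for 4 members (PSMB2, PSMD14, PSMD6 and PSMG4) and below them for 3 (PSMD2, PSME4 and PSMG3), against a background of 24.8% and 29.0%.

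Assembly factors of the core particle differed in sign in HCT116. PSMG3, a chaperone that pairs with PSMG4 in building the alpha ring, had 209.3 and 303.5 CPM in control and 182.6 and 133.0 CPM in Z325 libraries, a log2 fold change of -0.69 (SE 0.216, adjusted p = 0.0981 in edgeR). PSMG4 had 114.4 and 142.4 CPM in control and 162.7 and 160.5 CPM with Z325, 0.33 higher on the log2 scale (SE 0.161, adjusted p = 0.251). The groups did not overlap for either gene, in opposite directions, and neither passed the threshold. Without Z325 replicate 1 the PSMG3 value was -0.96 and passed it, in a fit that called a larger share of all genes. Without control replicate 2 the PSMG3 value was -0.41. PSMG4 stood at 0.18 without control replicate 1 and 0.49 without control replicate 2.

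PSME4, the nuclear activator PA200, had 66.9 and 44.8 CPM in HCT116 control and 39.7 and 39.5 CPM in Z325 libraries (log2 fold change -0.50, SE 0.246, adjusted p = 0.263 in edgeR), and the value was -0.18 without control replicate 1 and -0.77 without control replicate 2. PSMB2 had 1916 and 2136 CPM in control and 2217 and 2398 CPM with Z325, and PSMB1, also in the beta ring, had 4158 and 4628 against 5800 and 4624 CPM. Control and treated values of PSMB1 overlapped. The deubiquitinase of the lid, PSMD14, had 2118 and 2574 CPM in control and 2937 and 2634 with Z325 (log2 fold change 0.25, SE 0.143), and the lid subunit PSMD6 had 1156 and 1273 against 1448 and 1292 CPM (0.17, SE 0.128). Without the shallow Z325 replicate 2, PSMD14 (0.35) and PSMB1 (0.43) passed the adjusted threshold on the higher side. That fit called a larger share of all genes than the reported fit. PSMD1, the large scaffold of the base, had 903.9 and 1140 CPM in control and 924.6 and 871.2 with Z325. The alpha subunit PSMA5 had 1658 and 1875 CPM in control and 2027 and 1810 with Z325, and the ATPase PSMC2 had 1594 and 1951 against 1928 and 1709. PSMD1, PSMA5, PSMC2, PSMB4, PSMD4 and the uncertain PSMA2 had overlapping groups, with log2 fold changes between -0.19 and 0.12.

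Z325 against control in NCI-H716 covered all roles, and no member passed the adjusted threshold. Of 46 members, 0 were higher and 0 lower at an adjusted p under 0.05 in edgeR, against a background of 0.403% higher and 0.099% lower of 14142 genes. DESeq2 called 1 lower, PSMG3. A replicate block gave 2 higher and 12 lower, beside 2397 genes called in place of 71, but the replicate numbers are only shared labels. At an unadjusted p under 0.05, 1 member was higher and 10 lower (background 7.59% and 9.27%). Without control replicate 1 these counts were 0 and 0, and leaving out another library gave 6 to 11 lower. Without Z325 replicate 1 some members passed the adjusted threshold, mostly on the lower side, and without control replicate 2 PSMD3 and PSMD13 did. Both fits called a larger share of all genes than the reported fit, and the members' median log2 fold change was -0.21 in each. The groups did not overlap for 6 members with Z325 higher and for 23 with Z325 lower, 13.0% and 50% of the members (background 24.3% and 25.1%). Overlap of control and Z325 groups was judged in CPM throughout, unless TPM is named.

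The NCI-H716 members lay mostly on the lower side of a narrow range. Their log2 fold changes were below 0 for 35 of 46 (76.1%) against 50.6% of all genes, with a median of -0.16 against -0.01, and 38 of 46 lay within 0.5 of zero against 70.3% of all genes. With 1 library left out at a time the median ran from -0.21 to -0.11 and the count below 0 from 31 to 35. With limma on log2 FPKM, 30 of 46 lay below 0 with either pseudocount. Members took 1.70% and 1.68% of all counts in control and 1.57% and 1.58% in Z325 libraries. In HCT116 the 16 listed members took 1.75% and 1.95% in control and 2.0% and 1.89% with Z325, and the groups overlapped.

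**Figure D2:**
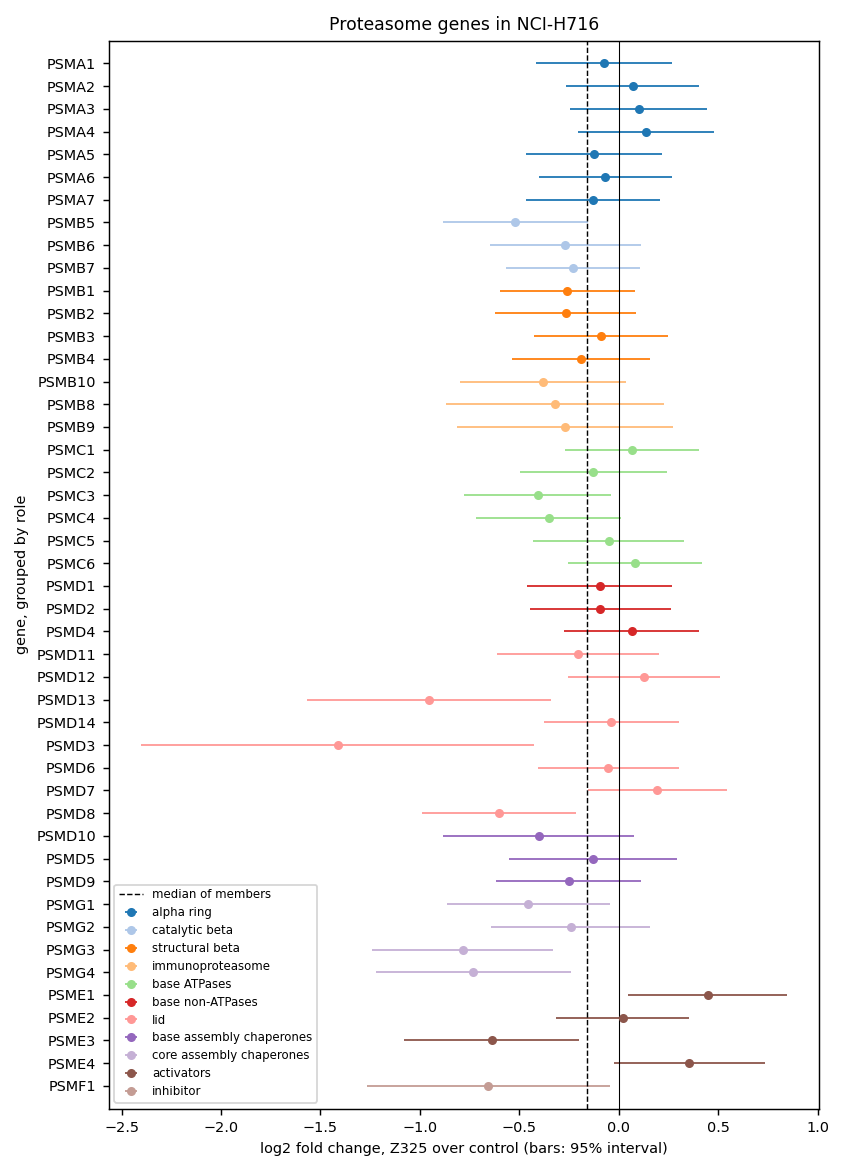
Log2 fold change, Z325 over control, of the 46 proteasome genes tested in NCI-H716 (x axis), with 1 gene per line grouped and coloured by role. Points are edgeR estimates, bars their 95% intervals and the dashed line the members' median of -0.16. Most points lie left of zero, PSMD3 farthest at -1.41, and PSME1 farthest right at 0.45.

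By role in NCI-H716, all 7 constitutive beta subunits and all 4 PSMG chaperones had both Z325 libraries below both controls in CPM, where 25.1% of all genes did. In the deposited TPM the groups overlapped for PSMB3 (1104 and 1231 in control, 1129 and 1105 with Z325) and PSMG2 (63.25 and 67.34 against 63.64 and 51.17). Of the alpha ring in CPM, 2 of 7 tested members lay above (PSMA2 and PSMA4, against 24.3% of all genes) and 4 below (PSMA1, PSMA5, PSMA6, PSMA7), and PSMA3 overlapped, with log2 fold changes from -0.13 to 0.14. In TPM, PSMA2 stayed above and PSMA5 and PSMA7 below. The TPM groups overlapped for PSMA4 (1198 and 1282 in control, 1267 and 1333 with Z325), PSMA1 (297.8 and 295.6 against 293.5 and 332.5), PSMA6 and PSMA3. No test of the roles against each other was run.

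Among catalytic subunits, PSMB5, which carries the chymotrypsin-like activity and is the main target of proteasome inhibitor drugs, had 1056 and 877.4 CPM in control and 697.4 and 650.9 CPM in Z325 libraries. Its log2 fold change was -0.52 (SE 0.163, unadjusted p = 0.00939, adjusted p = 0.176 in edgeR). PSMB6, with the caspase-like activity, had 803.4 and 756.7 CPM in control and 726.8 and 568.3 with Z325, and PSMB7, with the trypsin-like activity, had 400.9 and 389.9 against 341.4 and 332.1. The structural beta subunits PSMB1 to PSMB4 had log2 fold changes from -0.27 to -0.09. Of the immunoproteasome subunits, PSMB10 had 37.9 and 42.7 CPM in control and 32.3 and 29.5 with Z325 (-0.38, SE 0.189), with 39.4% of its exon bases shared with other genes. PSMB8 had 48.7 and 28.9 CPM in control and 29.5 and 32.7 with Z325, and PSMB9 had 28.7 and 19.1 against 21.4 and 18.4. The groups overlapped for PSMB8 and PSMB9, whose highest value was in control replicate 1, and their log2 fold changes of -0.32 and -0.27 became 0.11 and 0.07 without that library.

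In the regulatory particle, the lid subunits PSMD3, PSMD13 and PSMD8 were the farthest below control. PSMD3, a structural subunit, had 14.1 and 6.77 CPM in control and 5.49 and 2.51 with Z325, from 50 to 186 counts, with a log2 fold change of -1.41 (SE 0.446, adjusted p = 0.178 in edgeR). PSMD13 had 76.5 and 41.2 CPM in control and 34.4 and 26.6 with Z325 (-0.95, SE 0.277, adjusted p = 0.16). PSMD8 had 244.6 and 196.8 CPM in control and 154.7 and 136.2 with Z325 (-0.60, SE 0.174, adjusted p = 0.159). For all 3 the groups did not overlap and control replicate 1 was the highest library. Without it the values of PSMD3 and PSMD13 were -0.77 and -0.43, and without Z325 replicate 1 PSMD3, PSMD13 and PSMD8 were at -2.05, -1.14 and -0.69. PSMD3 stood at -0.92 without Z325 replicate 2. The other lid subunits PSMD6, PSMD7, PSMD11, PSMD12 and PSMD14 lay between -0.20 and 0.19, with the groups apart only for PSMD7, where Z325 was higher. Of the ATPases, which unfold the substrate, PSMC3 had 108.9 and 110.1 CPM in control and 77.3 and 87.7 with Z325 (-0.41, SE 0.166, adjusted p = 0.258), PSMC4 lay at -0.35 with groups apart, PSMC6 at 0.08 with groups apart, and PSMC1, PSMC2 and PSMC5 had overlapping groups. PSMC1 is uncertain, since an antisense gene covers 76.2% of its exon bases. The base scaffold PSMD2 had 151.7 and 149.1 CPM in control and 132.4 and 149.7 with Z325. Its groups overlapped, as did those of PSMD1 and the ubiquitin receptor PSMD4. In the deposited TPM, PSMD2 lay apart, at 69.67 and 55.26 in control against 46.15 and 45.85 with Z325. PSMC1, PSMC2, PSMD6, PSMD12 and PSMD14 also lay apart and lower in TPM, while PSMC5, PSMD1, PSMD4 and PSMD11 overlapped there too.

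All 4 core assembly chaperones had lower values with Z325 in NCI-H716. PSMG3 had 205.3 and 150.2 CPM in control and 117.0 and 89.5 with Z325, the smallest p among the members (log2 fold change -0.79, SE 0.205, unadjusted p = 0.00309, adjusted p = 0.128 in edgeR, 0.0287 in DESeq2). PSMG4 had 53.4 and 45.9 CPM in control and 35.6 and 24.4 with Z325 (-0.73, SE 0.221, adjusted p = 0.169), and 15% of its exon bases lie opposite other genes. PSMG1, which with PSMG2 starts the alpha ring, had 86.7 and 89.7 CPM in control and 72.9 and 55.9 with Z325 (-0.45, SE 0.185), and PSMG2 had 73.0 and 69.5 against 66.7 and 53.8 (-0.24, SE 0.181). Z325 replicate 2 was the lowest library for each of the 4, and without it PSMG4 stood at -0.47, PSMG1 at -0.26 and PSMG2 at -0.08. Without Z325 replicate 1, PSMG3 and PSMG4 passed the adjusted threshold, in the fit that called a larger share of all genes. Of the chaperones of the base, PSMD10, also known as gankyrin, stood at 211.4 and 168.7 against 173.6 and 114.0 CPM (-0.40, SE 0.216), PSMD9 at 103.7 and 103.0 against 91.1 and 82.5, and PSMD5 at 34.7 and 40.5 against 35.5 and 33.1. Only PSMD9 of these 3 had groups that did not overlap, and PSMD10 ran from -0.73 without Z325 replicate 1 to -0.12 without Z325 replicate 2. In TPM the groups of PSMD5 were also apart, at 9.53 and 10.26 in control against 8.48 and 8.59 with Z325.

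The activators lay on both sides of control in NCI-H716. PSME1 and PSME2, which form the heteromeric PA28 cap linked to antigen processing, had 197.3 and 182.8 CPM in control against 221.9 and 296.1 with Z325 for PSME1 (0.45, SE 0.18, unadjusted p = 0.0315, adjusted p = 0.254 in edgeR), and 767.0 and 778.7 against 798.5 and 767.9 for PSME2. PSME1 was the 1 member with an unadjusted p under 0.05 on the higher side. PSME3, the nuclear PA28 gamma, had 110.8 and 95.7 CPM in control and 77.0 and 55.7 with Z325 (-0.64, SE 0.199, adjusted p = 0.175). PSME4 had 106.8 and 113.0 CPM in control and 125.9 and 155.1 with Z325 (0.35, SE 0.172, adjusted p = 0.321). The inhibitor PSMF1 had 62.9 and 33.7 CPM in control and 34.0 and 27.5 with Z325 (-0.66, SE 0.275, adjusted p = 0.27), and its groups overlapped. In TPM they were apart, at 19.55 and 7.34 against 7.08 and 5.13. The PSMF1 value was -0.13 without control replicate 1 and -1.02 without control replicate 2. Without Z325 replicate 1, PSME1, PSME3 and PSMF1 were at 0.65, -0.88 and -0.81, and without Z325 replicate 2 PSME1, PSME3 and PSME4 stood at 0.24, -0.41 and 0.21.

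**Figure D3:**
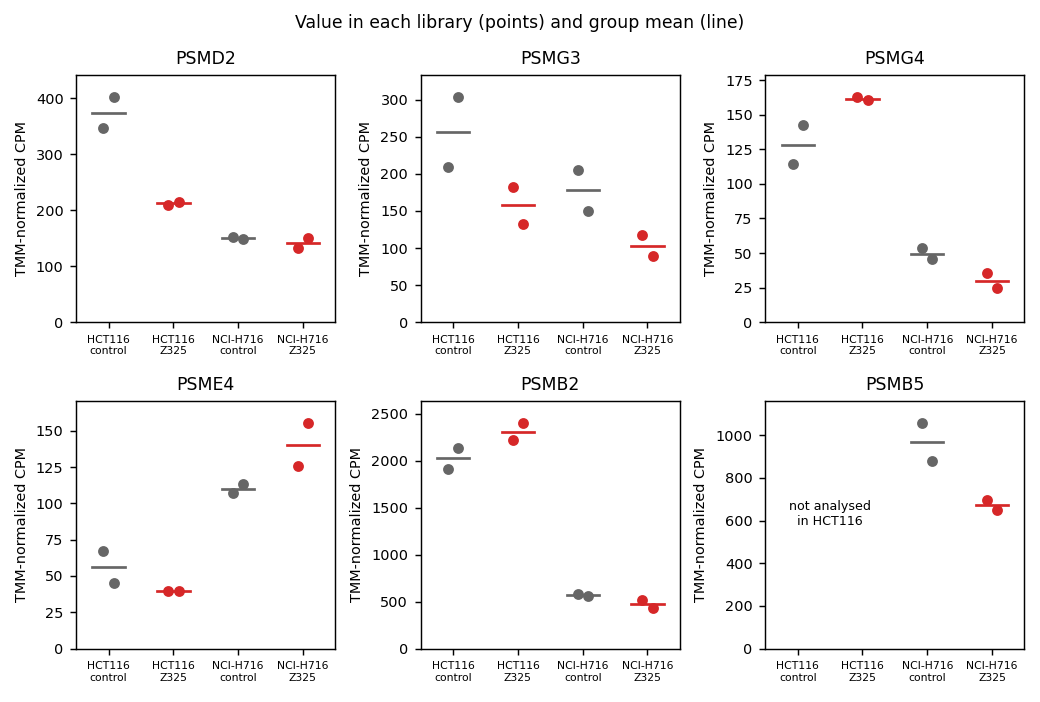
TMM-normalized CPM of 6 proteasome genes in each library (points, grey for control and red for Z325) with the group mean as a line, for HCT116 and NCI-H716 along the x axis. PSMD2 was lower with Z325 in HCT116 and overlapped in NCI-H716, PSMG3 lay lower in both lines, PSMG4, PSME4 and PSMB2 lay on opposite sides in the lines, and PSMB5 has NCI-H716 values only, from 650.9 to 1056.

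The GC content of the transcripts moved with the NCI-H716 values. Over the 46 members, Spearman's rho between the log2 fold change and the GC content of the longest coding transcript was -0.46, a description over genes that share the same 4 libraries, against -0.29 over the 14067 tested genes with a transcript sequence. The difference between control replicates 1 and 2 also followed GC content, with rho of 0.37 over the members and 0.29 over all genes. The 10 members lower at an unadjusted p under 0.05 had a median GC content of 52.5%, against 46.2% for the other 36. The 21 members with at least 50% GC had a median log2 fold change of -0.27 and the 25 below it -0.10, and 18 and 17 of them were below 0. PSMB10, the richest at 61.7%, and PSMG3, at 59.4%, both had lower values with Z325. The part of GC content in these differences was not tested. In HCT116 rho was -0.17 over 14 members and -0.26 over all genes.

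Whether the response to Z325 depended on the line was tested with an interaction term in 1 fit of the 8 libraries. Of the 14 members with counts in both lines, 0 differed at an adjusted p under 0.05 in edgeR, against a background of 0.0697% of 7173 genes, and 5 had an unadjusted p under 0.05, against a background of 15.3%. PSMG4 had the smallest p, with the NCI-H716 log2 fold change 1.08 below that of HCT116 (-1.08, 95% interval -1.72 to -0.44, adjusted p = 0.176 in edgeR). DESeq2 called this difference (-1.16, adjusted p = 0.032), and no other. The PSMG4 groups did not overlap in either line, with Z325 above control in HCT116 and below it in NCI-H716.

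PSME4 and PSMB2 also had groups apart on opposite sides. For PSME4 the difference, NCI-H716 minus HCT116, was 0.84 (95% interval 0.20 to 1.48, adjusted p = 0.237 in edgeR), and for PSMB2 it was -0.47 (-0.90 to -0.04, adjusted p = 0.31). PSMD2 differed by 0.71 (0.26 to 1.17, adjusted p = 0.192 in edgeR), with Z325 below control in HCT116 and overlapping CPM in NCI-H716. In the deposited TPM of NCI-H716 both Z325 libraries of PSMD2 lay below both controls. There limma on log2(FPKM + 1) gave a log2 fold change of -0.36, against -0.09 in edgeR. The fall of PSMD2 in HCT116 is not shown to be particular to that line at the adjusted threshold. PSMB1 was the fifth, at -0.52 (-0.99 to -0.06, adjusted p = 0.294). PSMG3 lay below control in both lines, with a difference of -0.11 whose interval, -0.85 to 0.62, leaves room for a sizeable difference in either direction. The other 8 members had differences between -0.30 and 0.08.

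**Figure D4:**
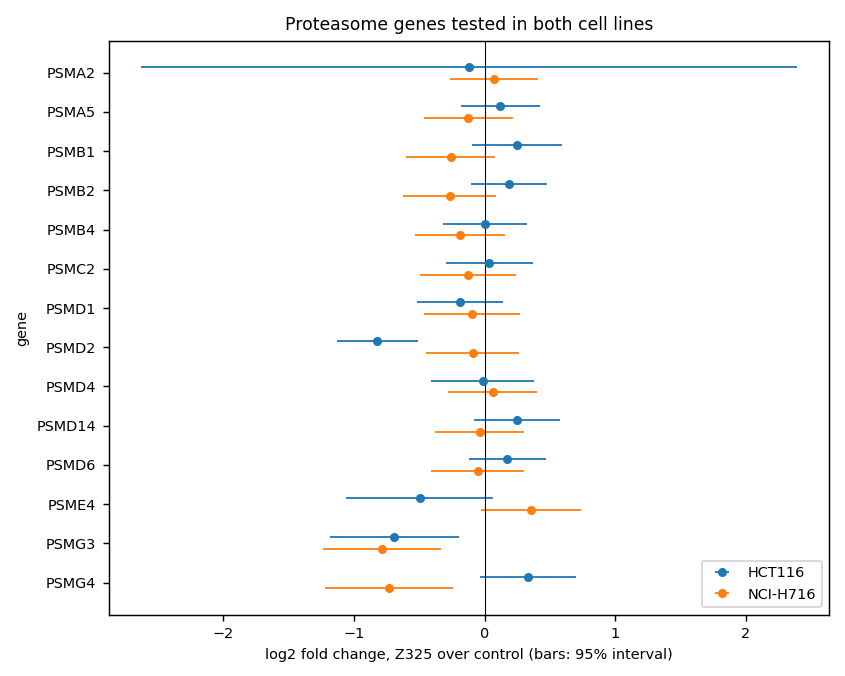
Log2 fold change, Z325 over control, of the 14 proteasome genes tested in both lines (x axis), in blue for HCT116 and orange for NCI-H716, with 95% intervals as bars. PSMD2 stands at -0.82 in HCT116 and -0.09 in NCI-H716, PSMG3 is on the left in both lines, and PSMG4 and PSME4 lie on opposite sides of zero. The wide bar of PSMA2 in HCT116 reflects its 0 to 24 counts.

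Genes that work with the proteasome were followed as 3 lists. Of 15 partners (subunit SEM1, ubiquitin receptor ADRM1, maturation protein POMP, deubiquitinases and regulators of proteasome transcription), 7 were tested in HCT116, and 2 rose while 0 fell at an adjusted p under 0.05 in edgeR (background 2.83% and 2.94%). ZFAND2A, a stress-induced proteasome-associated protein, had 148.6 and 192.2 CPM in control and 459.3 and 379.1 with Z325, a fold of 2.46 (adjusted p = 0.00678). NGLY1, the glycanase that processes the transcription factor of proteasome genes NFE2L1, had 280.8 and 297.8 CPM in control and 435.0 and 401.7 with Z325, a fold of 1.45 (adjusted p = 0.0479). SEM1 had 1513 and 1411 against 2233 and 1782 CPM (adjusted p = 0.101), and UCHL5 474.2 and 511.2 against 545.1 and 610.5. The median log2 fold change over the 7 was 0.23.

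In NCI-H716 all 15 partners were tested and 0 passed the adjusted threshold (background 0.403% higher and 0.099% lower). An unadjusted p under 0.05 was reached by 3 on the higher side and 0 on the lower (background 7.59% and 9.27%), with a median log2 fold change of 0.14. ZFAND5, an activator of the proteasome, had 100.6 and 107.2 CPM in control and 159.4 and 152.9 with Z325 (fold 1.5, adjusted p = 0.139 in edgeR). ECPAS, a scaffold of the proteasome, had 57.0 and 71.0 against 80.7 and 102.6 CPM, and NFE2L1 itself 27.0 and 27.8 against 33.4 and 40.9. SEM1 had 524.9 and 518.2 against 612.0 and 719.7 CPM. The groups of these 4 did not overlap in CPM, with Z325 higher, while POMP, ZFAND2A and NGLY1 overlapped. In the deposited TPM the groups of ECPAS overlapped, at 14.03 and 15.26 in control against 13.13 and 14.29 with Z325. Those of NGLY1 were apart in TPM, at 19.07 and 20.93 against 23.34 and 22.56.

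Ubiquitin genes and carriers gave 0 of 4 tested in HCT116 and 0 of 16 in NCI-H716 at an adjusted p under 0.05 in edgeR. The background was 2.83% higher and 2.94% lower in HCT116 and 0.403% and 0.099% in NCI-H716, so lists this short would hold few calls at those shares. Unadjusted p-values under 0.05 were found for 1 lower gene in HCT116 (background 12.7%) and for 1 higher and 4 lower genes in NCI-H716 (7.59% and 9.27%). The shuttle factor RAD23B, which carries ubiquitinated proteins to the proteasome, had 33.2 and 50.02 CPM in control and 58.9 and 73.5 with Z325 in NCI-H716. UFD1, a cofactor of the VCP unfoldase, had 147.6 and 108.0 CPM in control and 90.8 and 82.8 with Z325, and the polyubiquitin gene UBB had 3241 and 2778 against 2489 and 2082. In HCT116, UBQLN4 had 7.30 and 9.50 CPM in control and 3.75 and 2.86 with Z325.

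Genes that load proteasome products onto MHC class I also gave 0 of 4 tested in HCT116 and 0 of 11 in NCI-H716 at an adjusted p under 0.05 in edgeR. The background was 2.83% higher and 2.94% lower in HCT116 and 0.403% and 0.099% in NCI-H716. Unadjusted p-values under 0.05 were found for 1 higher and 1 lower gene in HCT116 (background 11.2% and 12.7%) and for 1 lower gene in NCI-H716 (9.27%). In NCI-H716 the peptide transporter genes had overlapping groups, with TAP1 at 15.3 and 16.6 CPM in control and 16.5 and 14.5 with Z325, and PDIA3, a chaperone of the loading complex, had 411.7 and 295.7 against 264.4 and 201.2 CPM (adjusted p = 0.197). In HCT116 the trimming peptidase ERAP1 had 0.578 and 0.919 CPM in control and 2.66 and 2.86 with Z325, and the transcription factor IRF1 had 8.23 and 9.04 against 4.14 and 2.29. TAP1 and TAPBP were at 0 in every HCT116 library, inside the same interval of chromosome 6 as PSMB8 and PSMB9.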

How the data were processed

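RNA from HCT116 and NCI-H716 cells, control or Z325, was sequenced in 8 libraries, 2 per group. For HCT116 the authors deposited unnormalized read counts per gene with positions and exon lengths, and 4 broken lines were left out. For NCI-H716 the authors deposited expected counts, TPM and FPKM per gene as RSEM writes them, and 62666 of 63241 identifiers were paired with symbols through GENCODE v44. The labels name Bowtie2 2.5.0, featureCounts and hg38, while the study's methods name TrimGalore, STAR and RSEM on GRCh38. How reads shared by overlapping genes were counted is not given in the sources used here. FPKM and TPM of HCT116 were computed from the deposited counts and lengths.

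After rounding the expected counts to whole numbers, each line was fitted separately in edgeR 4.0.16 (TMM, filterByExpr, quasi-likelihood test), over 6491 and 14142 genes, in place of the t-test on FPKM in the study's methods, since the files hold counts. The interaction was fitted over 7642 genes, and its background counts the 7173 with a count in HCT116. Intervals are 95%. Depth was 3434620 to 19738840 counts per library, and counting error is only part of the spread. Alternatives were DESeq2 1.42.0, other scalings and filters, limma 3.58.1 on log2(FPKM + 1) or log2(FPKM + 0.1), a replicate block, 1 fit over all 8 libraries and leaving out each library. The fits were tested on simulated data. Software was R 4.3.3, matplotlib 3.10.9, pandas 2.3.3 and Python 3.11.15.

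The members and lists were chosen with earlier results of these data known. Values in every library were given for members with an adjusted p under 0.05, for further members in order of p until 12 per line were named, and for the immunoproteasome, activators, inhibitor and assembly chaperones. Up to 4 genes of each list and line with the smallest p were named, and others were named after their values were seen. 1 gene that this rule selects is not reported here. GC content was compared after the data were seen.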

Additional observations from a re-analysis of the deposited data

How the results depend on the processing

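In all, 45 results were recomputed in 573 combinations of result and alternative. Of the 481 combinations for single genes, 433 kept direction and side of the threshold, 35 passed the threshold that the reported fit missed, 4 lost it and 9 reversed. Reversals came in 5 genes. PSMC2 in HCT116 was -0.0017 with library size alone and -0.0105 with no filter, and from -0.107 to 0.18 with 1 library left out. PSMA2 in HCT116 was 0.22 with all 8 libraries in 1 fit, and from -6.65 to 0.63 with 1 library left out. In NCI-H716, leaving out 1 library moved PSMB8 from -0.63 to 0.11, PSMB9 from -0.52 to 0.0652 and PSMD2 from -0.17 to 0.0026. The causes were not tested.

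The HCT116 count of lower members, 1 as reported, was 2 with DESeq2, 2 with no filter and 2 with at least 10 counts in every library, each time adding PSMG3, and 0 with limma on either pseudocount. The HCT116 counts of lower and higher members also moved with 1 library left out, in fits that called smaller or larger shares of all genes. The HCT116 median ran from -0.0934 to 0.19 in those fits. The NCI-H716 count of lower members, 0 as reported, was 1 with DESeq2 and 3 with no filter (PSMG3, PSMD3 and PSMD13). It rose without Z325 replicate 1 and without control replicate 2, and the count of higher members rose without Z325 replicate 1. Both fits called a larger share of all genes than the reported fit. The count of members that differed between the lines was 1 with DESeq2 in place of 0.

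With a replicate block, NCI-H716 gave 2 higher and 12 lower members in place of 0 and 0, beside 2397 genes called in place of 71, and HCT116 gave 0 and 1. The numbers are only shared labels. Deviations of same-numbered libraries correlated at 0.249 in NCI-H716 and -0.024 in HCT116, with 2 pairs in each line.

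With 2 libraries per group, and 3434620 counts in HCT116 Z325 replicate 2, small differences were not detectable. A filter on 10 counts removed PSMA2 from HCT116.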
